A study of Mus musculus with 18 samples.

Results

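The genes described here are 38 genes of the hypoxia response and of glycolysis, taken as a list fixed by symbol: the glucose transporters, the enzymes from hexokinase to lactate dehydrogenase, the lactate exporter, the pyruvate dehydrogenase kinases, Hif1a, and genes known as targets of hypoxia-inducible factor. All 38 were found among the 52636 genes listed for each library, and all 38 passed the filter on low counts that left 16497 genes for testing. The symbol Aldoa stood for 2 listed genes, of which ENSMUSG00000030695 alone was used. RNA-seq was made from mouse lung cells labelled alveolar type 2, in 6 groups of 3 libraries. LGK974, an inhibitor of the enzyme Porcupine that Wnt ligands need for their secretion, was given in every group, so no group shows these genes without it. The group called CHIR here was kept with CHIR99201 (spelled after the labels), a Wnt pathway agonist, after growth of the cells with it for 19 days. The 24 h withdrawal and 48 h withdrawal groups had it removed for 24 and 48 hours. In the remaining 3 groups it was replaced by Wnt (the group WNT), by an FZD5 agonist or by an FZD6 agonist, which act through the Frizzled receptors of those names. The labels give 8 to 12 hours for the treatments and do not say how these hours relate to the 24 and 48 hours of withdrawal, so a comparison with a withdrawal group may also be one of different times. For mouse strain, age, oxygen level, medium and glucose the sources used here give nothing. The labels name no separate culture or mouse behind libraries 1, 2 and 3 of a group, so each p-value here is against the spread of the libraries alone, which could be of technical origin.

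Hypoxia-inducible factor is a pair of proteins: an oxygen-labile alpha subunit, encoded by Hif1a or Epas1, and a stable partner, encoded by Arnt. With oxygen present, prolyl hydroxylases of the Egln family mark the alpha subunit for destruction through the Vhl protein, so its activity is set mainly at the protein level and the mRNA of Hif1a is a poor measure of it. Without oxygen the pair binds a short core sequence, ACGTG, near its targets, which include most glycolytic enzymes, Vegfa and the Egln genes themselves. Alveolar type 2 cells make surfactant and are the progenitors of the alveolar lining, and glycolysis is one of their sources of ATP and of carbon for surfactant lipid.

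The promoters of these genes carried the core ACGTG more often than promoters at large. RefSeq promoter windows (GRCm38.p6, 250 bases before to 50 after a start) were at hand for 36 of the 38 members, in 54 windows. The letters ACGTG stood on either strand of 29 windows (53.7%), against 19.6% of all 32851 windows of the same length. Counted by gene, 25 of 36 members (69.4%) had at least 1 such window, against 21.8% of 27025 genes. The related letters GCGTG stood in 51.9% of members' windows and in 32.4% of all. A match describes the letters only. Many members were listed as known targets of the factor, so this excess could be foreseen and says nothing about these libraries. Members also had more windows per gene than genes at large, which raises their share counted by gene. Below are 160 bases ending at the base before a start, 5′ to 3′ along the gene's strand, with ACGTG or its complement CACGT in capitals; CACGTG holds both, overlapping by 4 letters. They are shown for 5 members picked with matches, and for Vegfa, whose window shown has none.
Pgk1: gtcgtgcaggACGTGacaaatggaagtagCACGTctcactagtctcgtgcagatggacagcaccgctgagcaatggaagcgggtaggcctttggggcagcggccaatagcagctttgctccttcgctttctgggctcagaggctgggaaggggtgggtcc
Ldha: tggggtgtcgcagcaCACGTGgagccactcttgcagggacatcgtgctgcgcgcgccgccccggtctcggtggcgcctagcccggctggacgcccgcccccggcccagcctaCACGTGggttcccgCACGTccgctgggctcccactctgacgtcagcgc
Bnip3: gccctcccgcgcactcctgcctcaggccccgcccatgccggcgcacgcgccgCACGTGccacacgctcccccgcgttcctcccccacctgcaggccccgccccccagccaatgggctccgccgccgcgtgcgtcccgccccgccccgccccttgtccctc
Slc16a3: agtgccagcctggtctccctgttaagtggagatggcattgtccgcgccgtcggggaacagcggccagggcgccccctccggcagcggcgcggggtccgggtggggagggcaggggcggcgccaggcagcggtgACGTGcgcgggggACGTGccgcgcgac
Car9: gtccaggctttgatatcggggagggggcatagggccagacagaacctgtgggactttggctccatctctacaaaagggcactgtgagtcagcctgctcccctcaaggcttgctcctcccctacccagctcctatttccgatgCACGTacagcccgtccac
Vegfa: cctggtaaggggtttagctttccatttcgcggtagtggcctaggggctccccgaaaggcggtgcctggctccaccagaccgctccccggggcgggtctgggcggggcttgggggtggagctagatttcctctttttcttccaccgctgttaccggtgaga
These lie at chrX:106186940-106187099 (plus strand), chr7:46845644-46845803 (plus), chr7:138909507-138909666 (minus), chr11:120948907-120949066 (plus), chr4:43506866-43507025 (plus) and chr17:46032378-46032537 (minus) in GRCm38.p6, in each case just upstream of a RefSeq start of the gene. The Ldha window holds 5 matches counted over both strands, those of Pgk1, Bnip3 and Slc16a3 hold 2 each, and that of Car9 holds 1.

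Gene counts summed to between 31509607 and 52030066 per library. The 9 alveolar type 2 markers chosen summed to 61625 to 158287 CPM (counts scaled to a common library size, with TMM factors) over the 18 libraries, most of it Sftpc. The sum was highest in 24 h withdrawal 2, where Lamp3 had 2958 counts against 47549 and 48608 in libraries 1 and 3. Abca3 had 9744 there against 48547 and 58039. Sftpc and Sftpb had more counts there than in libraries 1 and 3, and the other markers fewer. The sum alone therefore does not show how well the label fits that library. The 9 alveolar type 1 markers summed to 4223.5 to 10235 CPM, the 8 mesenchymal markers to 1.41 CPM at most and the 5 endothelial markers to 0.119 CPM at most. Of the 8 haematopoietic markers, Lyz2, which type 2 cells also make, and Cd68 exceeded 1 CPM in the 14 libraries named next. The libraries CHIR 1, CHIR 3, 24 h withdrawal 2 and FZD6 agonist 1 stand apart from the rest. Their median correlation with the other libraries was 0.782 to 0.950, against 0.966 to 0.982 for the other 14, and 24 h withdrawal 2 had 4.13% mitochondrial counts against 0.271% to 0.718% elsewhere. Airway secretory markers summed to 889, 675 and 1029 CPM in CHIR 3, 24 h withdrawal 2 and FZD6 agonist 1 and to 47.0 to 658 CPM in the other 14. In those 14 the sum was mostly Cyp2f2. Scgb1a1, Bpifa1 and Reg3g had 2160, 3625 and 1127 counts in CHIR 3 and 1095, 1192 and 2640 in 24 h withdrawal 2. In FZD6 agonist 1 they had 3085, 4483 and 8040, and in every other library at most 39, 9 and 0. Basal markers summed to 3.03 CPM in CHIR 3 and 12.6 in FZD6 agonist 1, and to at most 0.109 elsewhere. Calls are given with and without these 4 libraries. Without them CHIR is a single library, CHIR 2, whose spread is assumed to be that of the other groups.

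No member passed an adjusted p of 0.05 in any of the 12 comparisons between groups when all 18 libraries were fitted with edgeR's quasi-likelihood test. Of all genes tested, the share called was 2.59% for 48 h withdrawal against CHIR and 1.92% for WNT against CHIR, with 0 of 38 members called in both. It was 0.0485% for 48 h against 24 h withdrawal, 0.0121% for the FZD6 agonist against 48 h withdrawal, and 0.00606% for each agonist against CHIR. It was 0.0% in the other 6 comparisons: 24 h withdrawal against CHIR, WNT and the FZD5 agonist against 48 h withdrawal, and the 3 comparisons among WNT and the agonists. With 1 library left out in turn, calls over all genes ran from 57 (without 48 h withdrawal 1) to 920 (without CHIR 3) for 48 h withdrawal against CHIR and from 29 (without WNT 3) to 677 (without CHIR 3) for WNT against CHIR, with 0 members among them. At an unadjusted p under 0.05, members numbered 1 for 24 h withdrawal against CHIR, 2 for 48 h against CHIR and 2 for 48 h against 24 h, or 2.63%, 5.26% and 5.26% of the 38, against 17%, 16.5% and 18% of all genes. Against 48 h withdrawal they numbered 0 for WNT (0.212% of all genes), 4 for the FZD5 agonist (10.5%, against 2.38%) and 1 for the FZD6 agonist (2.63%, against 4.04%). In the remaining 6 comparisons there were 0 to 2, against 0.994% to 14.5% of all genes. DESeq2 on the same counts called 1 member, Eno2, lower at 48 h than at 24 h withdrawal, and none in the other 11 comparisons. Over all genes it called 582 of 15484 in that comparison, 423 of them lower, and 0 to 1275 in the others. Eno2 had 204 counts in 24 h withdrawal 2, a library that stands apart, against 49 and 32 in libraries 1 and 3. The lack of calls was not particular to the members. For the FZD5 agonist against 48 h withdrawal the 18 libraries gave 0 calls over all genes, and edgeR on those 2 groups alone gave 1958 of 15031. The spread between libraries of 1 group, described next, was also large for these genes. A p above the threshold therefore does not show that the groups had equal levels.

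**Figure D1:**
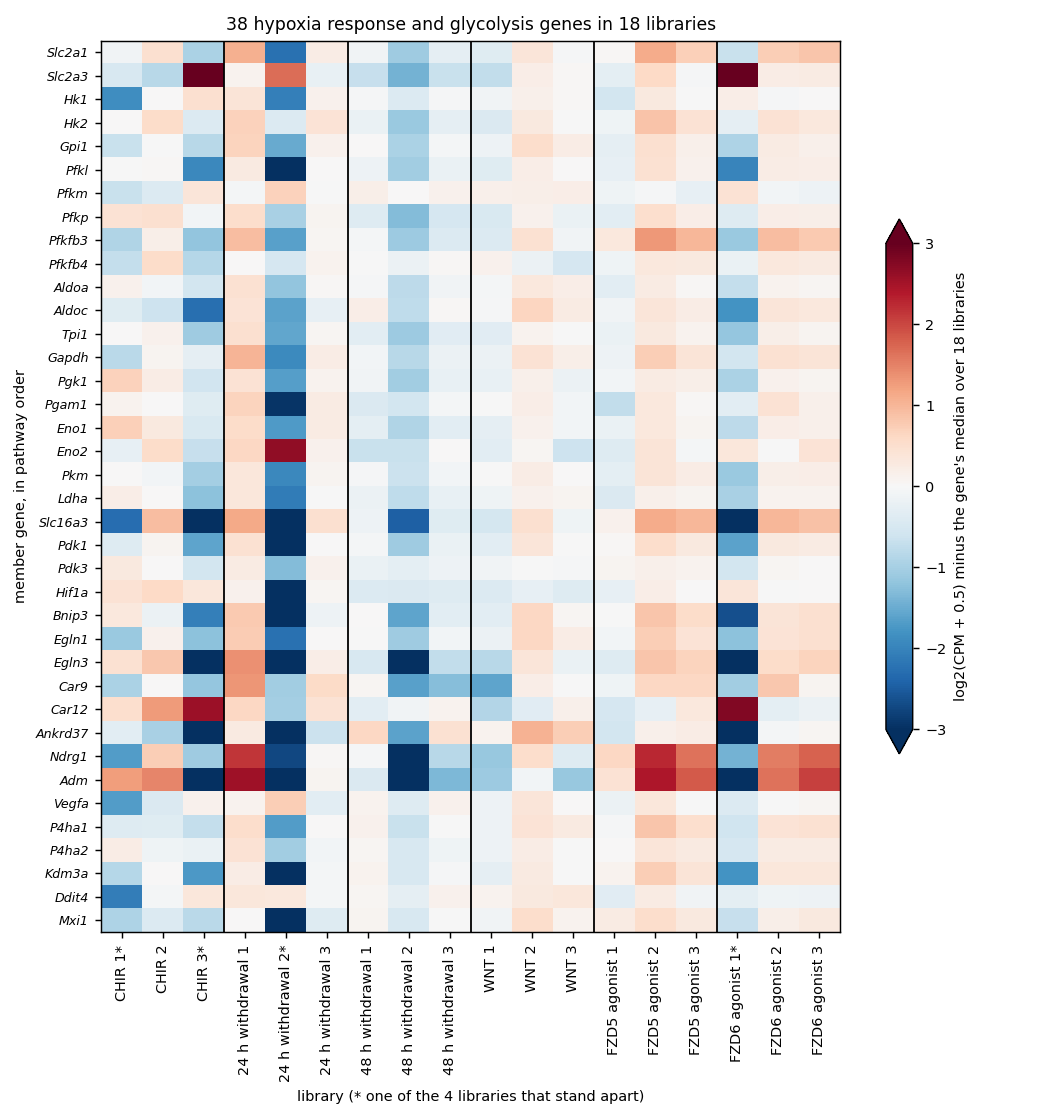
Level of each of the 38 members (rows, in pathway order) in each of the 18 libraries (columns, 3 per group), as log2(CPM + 0.5) minus the gene's median over all libraries. Blue columns (48 h withdrawal 2, 24 h withdrawal 2, CHIR 3, FZD6 agonist 1) mark libraries in which most members were low; 24 h withdrawal 1 and FZD5 agonist 2 are red for most members.

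The clearest pattern in these genes was between libraries of the same group: members were high or low together. In the 48 h withdrawal group 37 of 38 members had their lowest level in library 2 (97.4%), against 34.7% of all genes tested; the exception was Car12. In the FZD5 agonist group 37 of 38 were lowest in library 1 (97.4%), against 39.9% of all genes; the exception was Pfkm. In the WNT group 34 of 38 were lowest in library 1 (89.5%), against 34.1%; Pfkfb4, Pgam1, Eno2 and Adm were lowest in library 3. Highest levels were shared too: 29 of 38 members peaked in 48 h withdrawal 1, 34 in WNT 2 and 35 in FZD5 agonist 2. Of all genes tested, 31.55%, 34.3% and 36% were highest in these libraries. None of these 3 groups holds a library that stands apart. In the groups that do, the lowest library was CHIR 3 for 29 members (76.3%), 24 h withdrawal 2 for 33 (86.8%) and FZD6 agonist 1 for 32 (84.2%). Of all genes tested, 36.5%, 53.2% and 44.6% were lowest there.

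**Figure D2:**
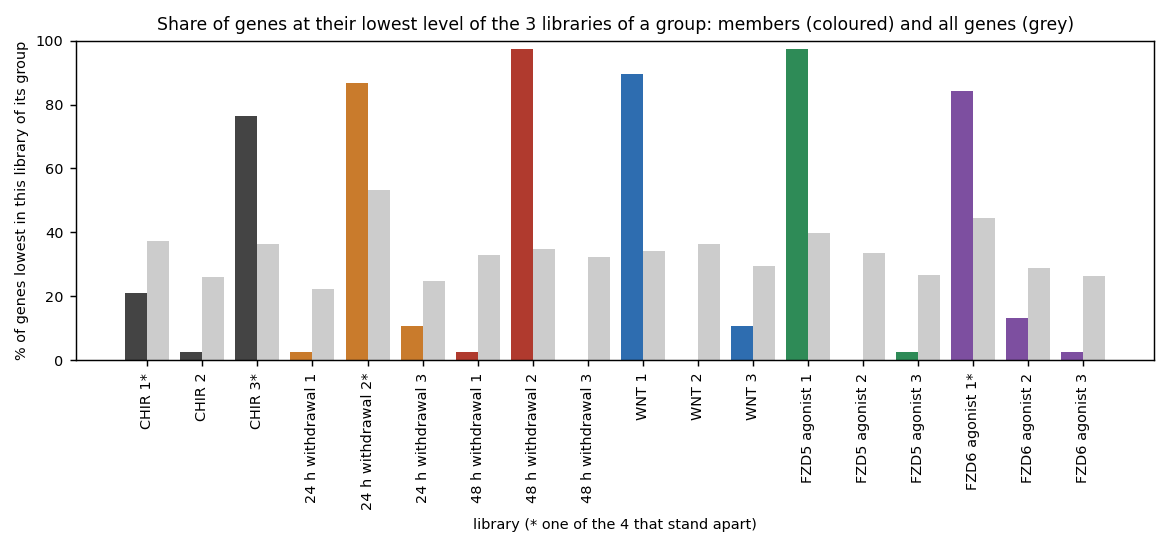
For each library (horizontal axis), the percentage of genes whose level was the lowest of the 3 libraries of that group: coloured bars for the 38 members, grey bars for all genes tested. The members concentrate in 1 library of each group, reaching 97.4% in 48 h withdrawal 2 and FZD5 agonist 1, where the grey bars stand at 34.7% and 39.9%.

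Further genes known as HIF targets, from a list that shares none of the 38, did likewise: of 31 tested, 26 were lowest in 48 h withdrawal 2, 26 in WNT 1 and 25 in FZD5 agonist 1. Of 30 further genes of glycolysis and pyruvate metabolism that passed the filter, 12, 9 and 20 were lowest there. The share of all genes lowest in these 3 libraries was 34.7%, 34.1% and 39.9%. In these 3 groups the libraries also had the fewest counts of their group: 34087850 in 48 h withdrawal 2 against 42304089 and 36465714, 42336825 in WNT 1 against 52030066 and 42656887, and 35005505 in FZD5 agonist 1 against 47353597 and 37292440. In the 24 h withdrawal group library 2, lowest for 33 members, had the fewest counts, 31509607 against 34811948 and 36495215. FZD6 agonist 1, lowest for 32, had the fewest of its group too, 41480168 against 41642292 and 43298780. Library 1 of 24 h withdrawal, with 33 members at their highest (25% of all genes were highest there), had fewer counts than library 3. CHIR 3, lowest of its group for 29 members, had the most counts of that group, 43631637 against 34458610 and 41386215. Ciliated markers summed to 16.1 CPM in 48 h withdrawal 2 against 9.98 and 8.37, to 7.54 in WNT 1 against 6.54 and 7.15, and to 20.7 in FZD5 agonist 1 against 3.36 and 6.11. Tppp3, with 543, 314 and 755 counts in these 3 libraries, made up most of each sum. Foxj1 went the other way, with 0 counts in all 3, against 5 and 4, 38 and 13, and 7 and 9. Airway secretory markers, by count mostly Cyp2f2 here, summed to 658 CPM in 48 h withdrawal 2 against 584 and 525, to 496 in WNT 1 against 502.5 and 551, and to 355 in FZD5 agonist 1 against 141 and 155. Alveolar type 1 markers summed to 10235 CPM in 48 h withdrawal 2 against 9482.5 and 9181, to 9290.1 in WNT 1 against 8794.5 and 9017, and to 9600.4 in FZD5 agonist 1 against 7155 and 7540. The part of depth and of other cell types in the low levels was not tested. In bulk RNA, fewer cells of a type and less RNA per cell cannot be told apart.

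The members differed in how far they moved within a group. The median member had a standard deviation of log2 CPM of 0.44 over the 48 h withdrawal libraries, 0.32 over WNT and 0.39 over the FZD5 agonist, against 0.14, 0.14 and 0.18 for the median of all genes tested. Adm, the vasodilator peptide adrenomedullin, had 2.82, 0.61 and 1.03, the widest at 48 h withdrawal and with the FZD5 agonist; in WNT Car12 (1.41) and Car9 (1.13) were wider. Ndrg1, a stress-response gene, had 1.95, 0.84 and 0.83, and Egln3, a HIF prolyl hydroxylase, 1.41, 0.61 and 0.66. At the other end stood Pdk3, a pyruvate dehydrogenase kinase, with 0.07, 0.06 and 0.03, and Pfkm, the muscle form of phosphofructokinase, with 0.09, 0.03 and 0.11. Hif1a itself had 0.02, 0.09 and 0.22. Next after Egln3 at 48 h withdrawal came Ankrd37 (1.30), Slc16a3 (1.29) and Car9 (1.03), while other known targets of the factor spread less there: Ddit4 had 0.21, P4ha2 0.28, Vegfa 0.29 and Kdm3a 0.31.

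**Figure D3:**
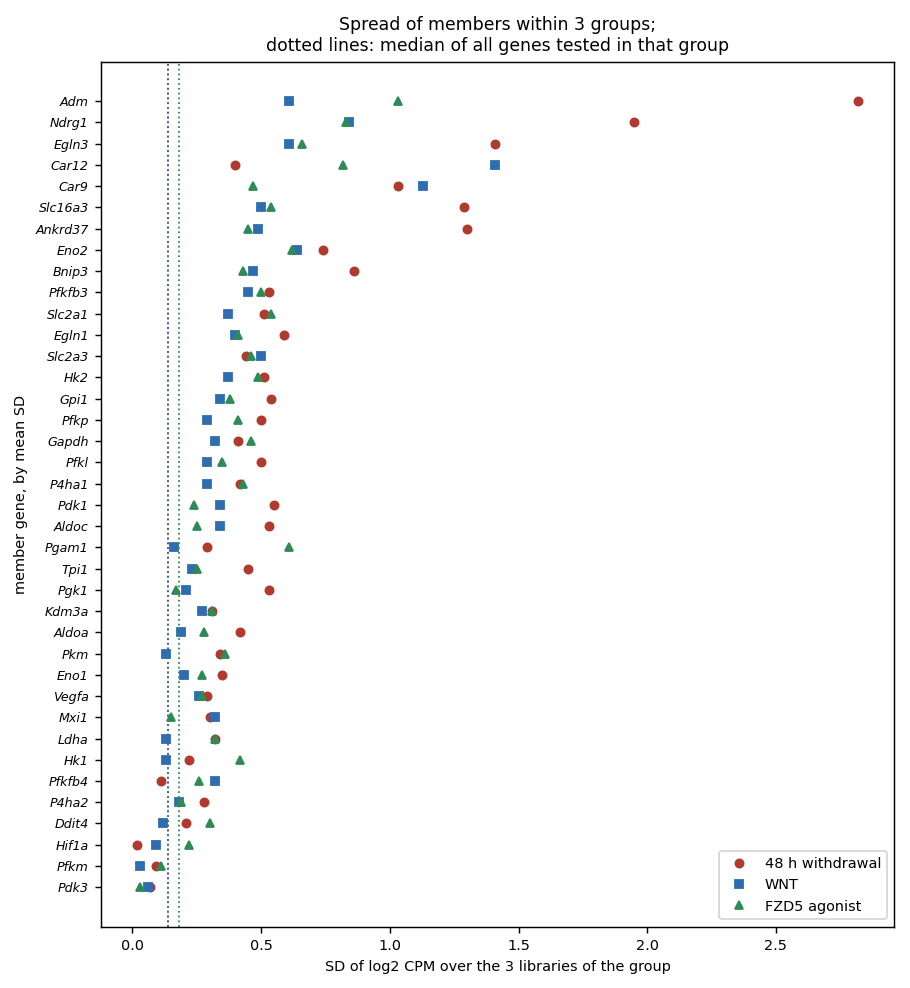
Standard deviation of log2 CPM over the 3 libraries of a group (horizontal axis) for each member (rows, ordered by the mean over the 3 groups shown), with dotted lines at the median of all genes tested (0.14 for 48 h withdrawal and WNT, drawn on top of each other, and 0.18 for the FZD5 agonist). Adm, Ndrg1 and Egln3 lie far to the right, Pdk3 and Pfkm left of the lines, and Hif1a left of them except with the FZD5 agonist (0.22).

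Without the 4 libraries that stand apart, 9 members were called in at least 1 comparison. For 48 h withdrawal against CHIR 1 member was higher and 3 lower, beside 13.6% and 13.9% of all 17433 genes tested. For WNT against CHIR 1 was higher and 3 lower, beside 13.6% and 13.0%. For 48 h against 24 h withdrawal 5 were lower, beside 9.5%. Hif1a alone was lower in 24 h withdrawal, in the FZD5 agonist group and in the FZD6 agonist group than in CHIR, beside 1.74%, 5.58% and 3.01% of all genes. Against 48 h withdrawal the FZD5 agonist had 3 members higher and 1 lower, beside 8.86% and 6.84%, and the FZD6 agonist had 2 higher, beside 7.42%. Against WNT each agonist had 1 member higher, Hif1a, and 1 lower, Pfkm. Beside these stood 8.74% and 7.92% of all genes for the FZD5 agonist and 6.61% and 5.19% for the FZD6 agonist. No member was called for WNT against 48 h withdrawal (0.0% of all genes, and at an unadjusted p under 0.05 4 members, or 10.5%, and 7.71% of all genes) or between the 2 agonists (0.00574% of all genes, and unadjusted 0 members and 3.06% of all genes). At an unadjusted p under 0.05 the 14 libraries gave 21 members for the FZD5 agonist, 20 for the FZD6 agonist and 19 for 24 h withdrawal against 48 h withdrawal, or 55.3%, 52.6% and 50%, against 28.7%, 26.2% and 30.2% of all genes. Against CHIR the members' share lay below that of all genes in each of the 5 comparisons, at 7.89% to 26.3% against 18.3% to 37.0%.

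The fitted values of the whole list leaned one way more often than its calls did. In the 18 libraries the median log2 fold change over members was 0.42 for WNT, 0.55 for the FZD5 agonist and 0.33 for the FZD6 agonist against 48 h withdrawal, beside 0.00, 0.01 and 0.02 for all genes. Positive values were fitted for 36, 35 and 34 of 38 members in these 3 comparisons, which share the 48 h withdrawal libraries. Without the 4 libraries the medians were 0.44, 0.56 and 0.61. These values rest in part on 48 h withdrawal 2, in which 37 members were lowest: without it alone they were 0.18 for WNT, 0.39 for the FZD5 agonist and 0.12 for the FZD6 agonist. They were also lower without WNT 2 (0.23), FZD5 agonist 2 (0.37), FZD6 agonist 2 (0.15) or FZD6 agonist 3 (0.14). With 24 h withdrawal in place of 48 h as the baseline the 3 medians were 0.05, 0.27 and 0.10. The median was -0.29 for 48 h against 24 h withdrawal in the 18 libraries and -0.70 in the 14, and -0.14 and -0.41 for 48 h withdrawal against CHIR. Without 48 h withdrawal 2 alone these 2 comparisons had medians of -0.07 and 0.15, and the signs also turned without 24 h withdrawal 1 in the former (0.15) and without CHIR 2 in the latter (0.16). Between the 2 agonists it was 0.26 in the 18 libraries and -0.04 in the 14.

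**Figure D4:**
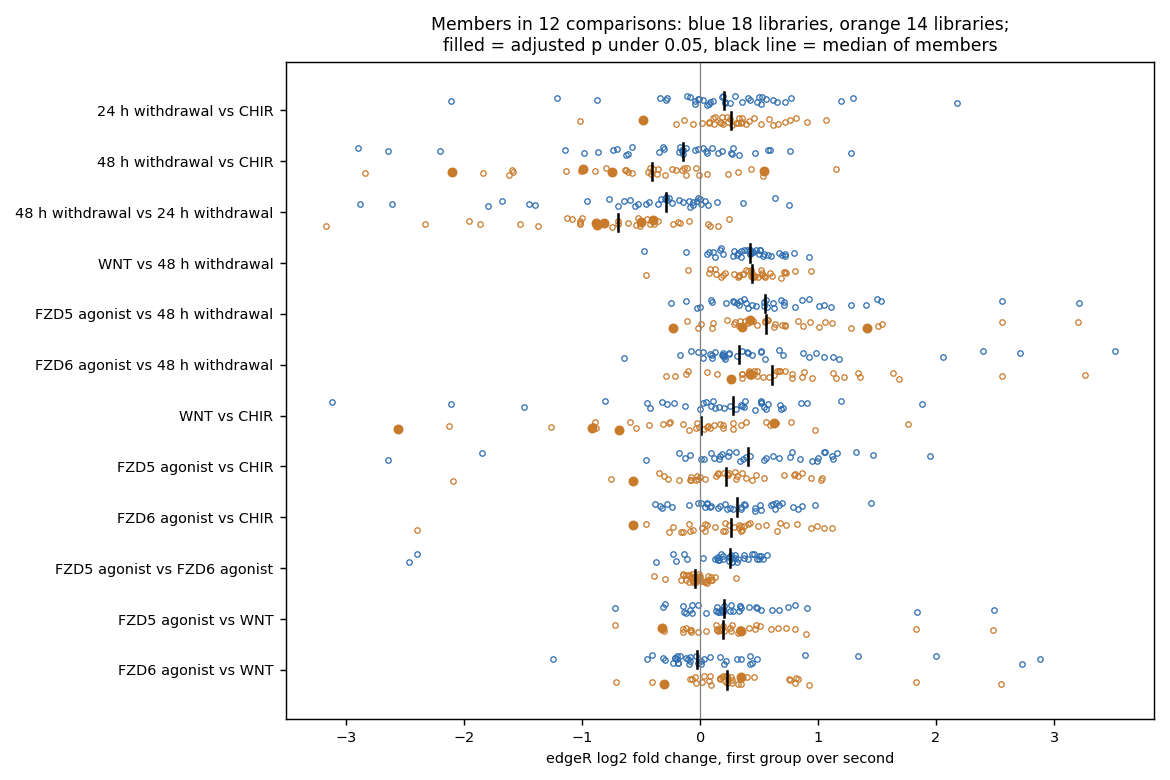
edgeR log2 fold change of each member (points) in the 12 comparisons, from all 18 libraries (blue, upper row) and from 14 libraries (orange, lower row); filled points have an adjusted p under 0.05 and black lines mark the median member. No blue point is filled; filled orange points are 1 to 5 per comparison, and none for WNT against 48 h withdrawal or between the agonists.

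Groups whose libraries did not overlap were also counted, with no model. All 3 FZD5 agonist libraries stood above all 3 of 48 h withdrawal in 16 members (42.1%), against 16.8% of all genes, and below in 1, Pfkm, against 15.6%. The 16 were Slc2a1, Slc2a3, Hk2, Pfkp, Pfkfb3, Tpi1, Pgk1, Eno1, Slc16a3, Pdk1, Pdk3, Hif1a, Egln3, Ndrg1, Adm and Mxi1. For the FZD6 agonist, which holds a library that stands apart, Slc2a3 and Hif1a did so, against 13.2% of all genes, and no member stood below, against 12.4%. For WNT, Eno1, Pkm, Ldha and Pdk3 stood above 48 h withdrawal (10.5%), against 7.42%, and none below, against 8.8%. Pfkp, Hif1a and Car12 stood below CHIR at 48 h withdrawal, against 14.5% of all genes, and none above, against 14.5%. Since the members were high or low together in a library, these counts are not of separate observations.

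Glucose enters the cell through the transporters Slc2a1 (GLUT1) and Slc2a3 (GLUT3). Slc2a1 (ENSMUSG00000028645, chr4:119108711-119137983, plus strand) was at 209.6, 317 and 117 CPM in CHIR, 477, 47.5 and 264 in 24 h withdrawal and 209, 108 and 187 in 48 h withdrawal, in the order of libraries 1, 2 and 3 used throughout. It was at 175, 293 and 219 CPM in WNT, 234, 487 and 370.3 with the FZD5 agonist and 143, 376 and 403 with the FZD6 agonist. The 3 FZD5 agonist libraries all lay above the 3 of 48 h withdrawal, and every other pair of groups overlapped. Group means were 168 ± 53.0 CPM (SD, n = 3) and 364 ± 127 CPM (SD, n = 3), and the difference did not pass the test (log2 fold change 1.11 ± 0.619 SE, adjusted p = 1 in edgeR; 0.0764 in the 14 libraries). Slc2a3 showed where the 4 libraries differ: it was at 439 CPM in CHIR 3, 132 in 24 h withdrawal 2 and 655 in FZD6 agonist 1, and at 15.0 to 62.0 CPM in the other 15. Per length, as RPKM (CPM per kilobase of the gene's exons), Slc2a3 made up 75.5%, 69.5% and 79.1% of the pair in those 3 libraries and 5.59% to 13.6% in the 14; in CHIR 1 it made up 10.4%. It was named after its values were seen, as were Hk1, Slc16a3, Eno2, Adm, Ndrg1 and the members called only in the 14 libraries.

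Hexokinases trap glucose as glucose 6-phosphate; Hk1 is the widely expressed form and Hk2 the inducible one. Hk2 (ENSMUSG00000000628, chr6:82725025-82774454, minus strand) was at 118, 172 and 87.1 CPM in CHIR, 189, 87.5 and 155 in 24 h withdrawal and 102, 53.7 and 96.3 in 48 h withdrawal. It was at 86.0, 143 and 116 CPM in WNT, 107, 212 and 157 with the FZD5 agonist and 96.4, 158 and 147 with the FZD6 agonist. The lowest FZD5 agonist library stood just above the highest of 48 h withdrawal, and FZD6 agonist 1 stood within the 48 h range. The difference between the FZD5 agonist and 48 h withdrawal did not pass the test (log2 fold change 0.92 ± 0.363 SE, adjusted p = 1 in edgeR; unadjusted p = 0.0229). Hk1 was the larger part of the pair by length, with 71.3 RPKM against 25.8 RPKM as medians of the 14 libraries, and ranged there from 237 to 454 CPM; in CHIR 1 and 24 h withdrawal 2 it was at 94.6 and 83.0 CPM. Gpi1, which turns glucose 6-phosphate into fructose 6-phosphate, ranged from 81.0 to 251 CPM in the 14 libraries and was at 55.1 CPM in 24 h withdrawal 2.

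Phosphofructokinase is the main control point of glycolysis, and its liver (Pfkl), platelet (Pfkp) and muscle (Pfkm) forms differed in level. Pfkl gave most of the step by length, with 63.2% to 71.8% of the RPKM of the 3 in the 14 libraries, and Pfkm the least, with 3.01% to 9.23%. In CHIR 3, 24 h withdrawal 2 and FZD6 agonist 1 the share of Pfkl was 36.5%, 17.2% and 39.8%. Pfkl ranged from 388 to 1105 CPM and Pfkp from 146 to 526 CPM in the 14 libraries, and neither was called in either fit. Pfkm was at 25.7, 30.9 and 53.5 CPM in CHIR, 39.5, 66.8 and 40.9 in 24 h withdrawal and 46.8, 41.5 and 44.8 in 48 h withdrawal. It was at 46.0, 46.2 and 47.6 CPM in WNT, 37.5, 40.3 and 34.5 with the FZD5 agonist and 55.5, 39.0 and 36.9 with the FZD6 agonist. Its WNT and 48 h libraries were tight, and the FZD5 agonist libraries lay below both. In the 14 libraries Pfkm fell with the FZD5 agonist against 48 h withdrawal (log2 fold change -0.23 ± 0.0755 SE, adjusted p = 0.0464 in edgeR) and against WNT (log2 fold change -0.32 ± 0.0753 SE, adjusted p = 0.00842 in edgeR), and with the FZD6 agonist against WNT (log2 fold change -0.30 ± 0.0846 SE, adjusted p = 0.0293 in edgeR). It rose at 48 h withdrawal against CHIR 2 (log2 fold change 0.54 ± 0.110 SE, adjusted p = 0.00163 in edgeR) and in WNT against CHIR 2 (log2 fold change 0.63 ± 0.110 SE, adjusted p = 0.000579 in edgeR). In the 18 libraries none of these passed (log2 fold change -0.24 ± 0.266 SE, adjusted p = 1 in edgeR for the first).

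Pfkfb3 makes fructose 2,6-bisphosphate, the strongest activator of phosphofructokinase, and Pfkfb4 is a related enzyme. Pfkfb3 (ENSMUSG00000026773, chr2:11471433-11554077, minus strand) was at 19.5, 41.7 and 16.1 CPM in CHIR, 71.2, 11.6 and 38.6 in 24 h withdrawal and 35.5, 17.2 and 27.7 in 48 h withdrawal. It was at 27.9, 51.4 and 34.5 CPM in WNT, 46.5, 91.6 and 74.4 with the FZD5 agonist and 16.7, 70.8 and 64.5 with the FZD6 agonist. Every FZD5 agonist library exceeded every 48 h withdrawal library, and so did the FZD6 agonist libraries 2 and 3. In the 14 libraries it rose with the FZD5 agonist against 48 h withdrawal (log2 fold change 1.41 ± 0.383 SE, adjusted p = 0.0393 in edgeR), while the FZD6 agonist against 48 h withdrawal did not pass (log2 fold change 1.34 ± 0.415 SE, adjusted p = 0.0742 in edgeR). With all 18 libraries the FZD5 agonist did not pass either (log2 fold change 1.4 ± 0.609 SE, adjusted p = 1 in edgeR). The difference between the 2 agonists did not pass (log2 fold change 0.07 ± 0.415 SE, adjusted p = 1 in edgeR in the 14 libraries). Pfkfb4 was at 66.8, 162 and 60.3 CPM in CHIR and 120.0, 97.3 and 77.1 in WNT, and was lower in WNT than in CHIR 2 in the 14 libraries (log2 fold change -0.69 ± 0.199 SE, adjusted p = 0.0234 in edgeR), where CHIR 2 stood above CHIR 1 and 3. In the 18 libraries its fitted value had the other sign (0.03).

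The lower enzymes of glycolysis split and oxidise the sugar and yield ATP. Ldha, Aldoa and Tpi1, with 945 RPKM, 739 RPKM and 563 RPKM as medians of the 14 libraries, were the most abundant members by length; Aldoc was at 26.9 RPKM, Pkm at 299 RPKM and Eno1 at 143 RPKM, while Eno2 was at 0.257 RPKM. Gapdh, Pgk1 and Pgam1 were listed far below their neighbours in the pathway, at 21.1 RPKM, 9.91 RPKM and 2.75 RPKM. Of the windows of 50 bases in their annotated transcripts, 25.1%, 53.9% and 36.2% also occur in a transcript of another gene. The gene that shares most is Gm7336, Pgk1-rs7 and Pgam1-ps2 in turn, so reads could be split or dropped there and these levels are uncertain. The same share was 26.0% for Eno1, 25.8% for Pkm and 47.2% for Bnip3. Whether the listed counts use strand, or keep reads with several matches, is not given in the sources used here.

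Pgk1 (ENSMUSG00000062070, chrX:106187100-106203699, plus strand), phosphoglycerate kinase, was at 27.7, 19.8 and 11.1 CPM in CHIR, 22.9, 5.04 and 18.3 in 24 h withdrawal and 15.5, 7.92 and 14.4 in 48 h withdrawal. It was at 14.3, 18.8 and 14.9 CPM in WNT, 15.9, 20.0 and 19.1 with the FZD5 agonist and 8.54, 18.4 and 17.9 with the FZD6 agonist. The FZD5 agonist libraries all lay above those of 48 h withdrawal, while every other pair of groups overlapped and no comparison passed (log2 fold change 0.54 ± 0.469 SE, adjusted p = 1 in edgeR). Eno1, an enolase, was at 554, 415 and 247 CPM in CHIR, 497, 104 and 400.5 in 24 h withdrawal and 275, 180.4 and 273 in 48 h withdrawal. In the 14 libraries it fell from 24 h to 48 h (log2 fold change -0.88 ± 0.203 SE, adjusted p = 0.0139 in edgeR). From CHIR 2 to 48 h its log2 fold change there was -0.75, while CHIR 3 lay within the 48 h range. Tpi1, triosephosphate isomerase, fell from 24 h to 48 h too (log2 fold change -0.82 ± 0.244 SE, adjusted p = 0.0458 in edgeR), with 1321, 319 and 987 and 765, 442 and 744 CPM. Pgam1, phosphoglycerate mutase, fell likewise (log2 fold change -0.88 ± 0.274 SE, adjusted p = 0.0377 in edgeR) at 8.18, 0.211 and 5.97 and 3.52, 3.20 and 4.71 CPM. Each of these 24 h to 48 h calls rests on 24 h withdrawal 1 and 3, which themselves differ, and with all 18 libraries the adjusted p-values were 0.62, 0.655 and 0.831 by edgeR. Eno2, the neuronal enolase, was at 7.19 CPM in 24 h withdrawal 2 and at 0.258 to 1.36 CPM in the other 17 libraries. The remaining enzymes of these steps were called in no comparison of either fit: Aldoa ranged from 763 to 1796 CPM, Aldoc from 40.2 to 108 CPM, Gapdh from 15.1 to 56.1 CPM and Pkm from 479 to 987 CPM in the 14 libraries.

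Lactate dehydrogenase A turns pyruvate into lactate, Slc16a3 (MCT4) exports it, and the kinases Pdk1 and Pdk3 keep pyruvate out of the mitochondrion. Ldha (ENSMUSG00000063229, chr7:46841475-46855627, plus strand) was at 1975, 1749 and 738 CPM in CHIR, 2203, 407 and 1714 in 24 h withdrawal and 1534, 1027 and 1481 in 48 h withdrawal. It was at 1589.8, 1891 and 1834 CPM in WNT, 1285, 1931 and 1847 with the FZD5 agonist and 887, 1873 and 1871 with the FZD6 agonist. WNT libraries all exceeded those of 48 h withdrawal, whereas FZD5 agonist 1 lay between 48 h withdrawal 2 and 3; no comparison passed (log2 fold change 0.40 ± 0.491 SE, adjusted p = 1 in edgeR). Slc16a3 was at 20.9, 199 and 0.940 CPM in CHIR, 231, 0 and 146 in 24 h withdrawal and 94.6, 18.7 and 80.9 in 48 h withdrawal. It was at 72.9, 146 and 96.0 CPM in WNT, 114, 228 and 208 with the FZD5 agonist and 1.22, 208 and 192 with the FZD6 agonist. It had 0 counts in 24 h withdrawal 2, where 3 counts, the limit a count of 0 allows, would be 0.106 CPM, and 40 and 47 counts in CHIR 3 and FZD6 agonist 1, against 630 to 10868 counts in the other 15 libraries. FZD5 agonist against 48 h withdrawal did not pass (log2 fold change 1.5 ± 1.72 SE, adjusted p = 1 in edgeR).

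Pdk3 was one of the few members with little spread at 48 h withdrawal, in WNT and with the FZD5 agonist. In CHIR, 24 h withdrawal and the FZD6 agonist group its standard deviation of log2 CPM was 0.44, 0.87 and 0.34. The median of all genes tested was 0.55, 0.85 and 0.29 there. Pdk3 was at 59.5, 49.0 and 32.9 CPM in CHIR, 57.8, 19.6 and 53.5 in 24 h withdrawal and 42.3, 39.6 and 43.7 in 48 h withdrawal. It was at 44.9, 48.6 and 47.3 CPM in WNT, 52.0, 54.5 and 52.7 with the FZD5 agonist and 33.0, 50.9 and 48.8 with the FZD6 agonist. All 3 FZD5 agonist libraries lay above all of 48 h withdrawal, WNT and the FZD6 agonist. In the 14 libraries it fell from 24 h to 48 h withdrawal (log2 fold change -0.40 ± 0.0757 SE, adjusted p = 0.00188 in edgeR) and was higher than at 48 h with the FZD5 agonist (log2 fold change 0.35 ± 0.0683 SE, adjusted p = 0.00261 in edgeR) and the FZD6 agonist (log2 fold change 0.26 ± 0.0759 SE, adjusted p = 0.0367 in edgeR). In the 18 libraries the first of these had a fitted value of -0.06, and the agonists did not pass (adjusted p = 1 for each by edgeR). Pdk1 ranged more widely, from 91.5 to 278 CPM in the 14 libraries, with 16.2, 63.5 and 63.3 CPM in 24 h withdrawal 2, CHIR 3 and FZD6 agonist 1, and was called in no comparison of either fit.

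Hif1a encodes the oxygen-labile subunit itself, and its mRNA gave the most calls of any member. Hif1a (ENSMUSG00000021109, chr12:73901375-73947530, plus strand) was at 497, 561 and 464 CPM in CHIR, 407, 35.9 and 387 in 24 h withdrawal and 278, 275 and 281 in 48 h withdrawal. It was at 276, 309 and 284 CPM in WNT, 313, 422 and 372 with the FZD5 agonist and 477, 368 and 372 with the FZD6 agonist. CHIR libraries were the highest apart from FZD6 agonist 1, which lay among them, 48 h withdrawal and WNT were the lowest apart from 24 h withdrawal 2, and the agonists lay between. In the 14 libraries Hif1a fell from CHIR 2 to 24 h withdrawal (log2 fold change -0.49 ± 0.124 SE, adjusted p = 0.0379 in edgeR) and from 24 h to 48 h (log2 fold change -0.51 ± 0.0931 SE, adjusted p = 0.00153 in edgeR). Against 48 h withdrawal it rose with the FZD5 agonist (log2 fold change 0.42 ± 0.0842 SE, adjusted p = 0.00324 in edgeR) and with the FZD6 agonist (log2 fold change 0.42 ± 0.0932 SE, adjusted p = 0.00752 in edgeR), and the WNT group did not pass (log2 fold change 0.08 ± 0.0840 SE, adjusted p = 0.837 in edgeR). The agonists stood above WNT by 0.34 and 0.34 on the log2 scale (edgeR adjusted p = 0.0108 and 0.0252) and below CHIR 2 by -0.57 and -0.57 (adjusted p = 0.00387 and 0.00899). With all 18 libraries none of these passed: 48 h withdrawal against CHIR had log2 fold change -0.87 ± 0.522 SE, adjusted p = 0.44 in edgeR. The value of 35.9 CPM in 24 h withdrawal 2 turned the fitted difference between 48 h and 24 h to 0.01.

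Egln1 and Egln3 are the HIF prolyl hydroxylases among the members and are themselves targets of the factor. Egln3 (ENSMUSG00000035105, chr12:54178981-54203860, minus strand) was at 130.3, 164 and 3.19 CPM in CHIR, 243, 4.02 and 108 in 24 h withdrawal and 66.9, 11.3 and 56.2 in 48 h withdrawal. It was at 52.4, 121 and 81.8 CPM in WNT, 72.1, 169 and 149 with the FZD5 agonist and 6.34, 138 and 150.3 with the FZD6 agonist. Within 48 h withdrawal the highest library had 5.91 times the level of the lowest, where Hif1a had 1.02 times. The FZD5 agonist libraries lay above those of 48 h withdrawal, without passing (log2 fold change 1.53 ± 1.27 SE, adjusted p = 1 in edgeR). Egln1 was the larger part of the pair by length, 63.1% to 91.5% of its RPKM in the 14 libraries, and ranged there from 164 to 589.7 CPM. In CHIR 1 it was the smaller part, with 47.6% against 52.4% for Egln3, and in CHIR 3, 24 h withdrawal 2 and FZD6 agonist 1 it had 97.2%, 93.0% and 94.5%. The share of Egln3 was highest in CHIR 2 (36.9%) and lowest in 48 h withdrawal 2 (8.51%) among the 14.

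Bnip3, a mitochondrial protein that drives mitophagy (ENSMUSG00000078566, chr7:138890836-138909519, minus strand), was at 35.6, 25.1 and 6.49 CPM in CHIR, 49.0, 3.03 and 25.4 in 24 h withdrawal and 28.4, 9.22 and 22.6 in 48 h withdrawal. It was at 22.7, 43.7 and 29.5 CPM in WNT, 28.3, 51.0 and 41.6 with the FZD5 agonist and 4.12, 37.5 and 40.0 with the FZD6 agonist. 48 h withdrawal 2 was the lowest of the 14 libraries, FZD5 agonist 1 stood within the range of the other 48 h libraries, and no comparison passed (log2 fold change 1.0 ± 0.854 SE, adjusted p = 1 in edgeR). Car9, the membrane carbonic anhydrase IX that is widely used as a marker of hypoxia (ENSMUSG00000028463, chr4:43506966-43513729, plus strand), was low everywhere, at 2.65, 5.64 and 2.26 CPM in CHIR, 14.8, 2.47 and 8.64 in 24 h withdrawal and 5.93, 1.48 and 2.04 in 48 h withdrawal. It was at 1.54, 6.59 and 5.63 CPM in WNT, 5.10, 8.90 and 9.01 with the FZD5 agonist and 2.46, 10.3 and 5.97 with the FZD6 agonist, and every pair of groups overlapped (log2 fold change 1.28 ± 0.726 SE, adjusted p = 1 in edgeR). Car12, a related carbonic anhydrase, was at 5.55 CPM in CHIR 3 and 6.42 in FZD6 agonist 1 and ranged from 0.0480 to 1.96 CPM in the 14 libraries. There it was lower than in CHIR 2 at 48 h withdrawal (log2 fold change -2.11 ± 0.691 SE, adjusted p = 0.0334 in edgeR) and in WNT (log2 fold change -2.57 ± 0.692 SE, adjusted p = 0.012 in edgeR), at 2 to 29 counts per library at 48 h withdrawal, in WNT and in the agonist libraries.

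Vegfa, the growth factor that draws blood vessels (ENSMUSG00000023951, chr17:46016993-46032369, minus strand), was at 147, 347 and 510.4 CPM in CHIR, 502, 779 and 377 in 24 h withdrawal and 506, 360.4 and 517 in 48 h withdrawal. It was at 419.9, 602 and 472 CPM in WNT, 415, 598 and 466 with the FZD5 agonist and 350.4, 466 and 490.2 with the FZD6 agonist. It was highest of all in 24 h withdrawal 2, where most members were lowest, and its 48 h withdrawal and FZD5 agonist libraries overlapped (log2 fold change 0.10 ± 0.368 SE, adjusted p = 1 in edgeR). Within the 48 h, WNT and FZD5 agonist groups its lowest library was still the shared one. Adrenomedullin, Adm, was at 71.2, 82.2 and 0.893 CPM in CHIR, 174, 0.0352 and 31.1 in 24 h withdrawal and 21.6, 0.504 and 11.2 in 48 h withdrawal. It was at 13.6, 28.0 and 13.2 CPM in WNT, 40.1, 161 and 108 with the FZD5 agonist and 3.26, 91.6 and 124 with the FZD6 agonist. The FZD5 agonist libraries lay above all those of 48 h withdrawal and WNT, with no call in either fit (log2 fold change 2.49 ± 1.71 SE, adjusted p = 1 in edgeR against WNT; adjusted p = 0.141 in the 14 libraries). Only the FZD5 agonist and WNT libraries fitted by themselves gave an edgeR adjusted p of 0.0402, with log2 fold change 2.48. That fit called 1998 of 15303 genes. Ndrg1 had the same order, at 68.9, 5.25 and 39.7 CPM in 48 h withdrawal, 31.9, 102 and 53.7 in WNT and 109, 339 and 222 with the FZD5 agonist (log2 fold change 2.56 ± 1.13 SE, adjusted p = 1 in edgeR against 48 h).

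**Figure D5:**
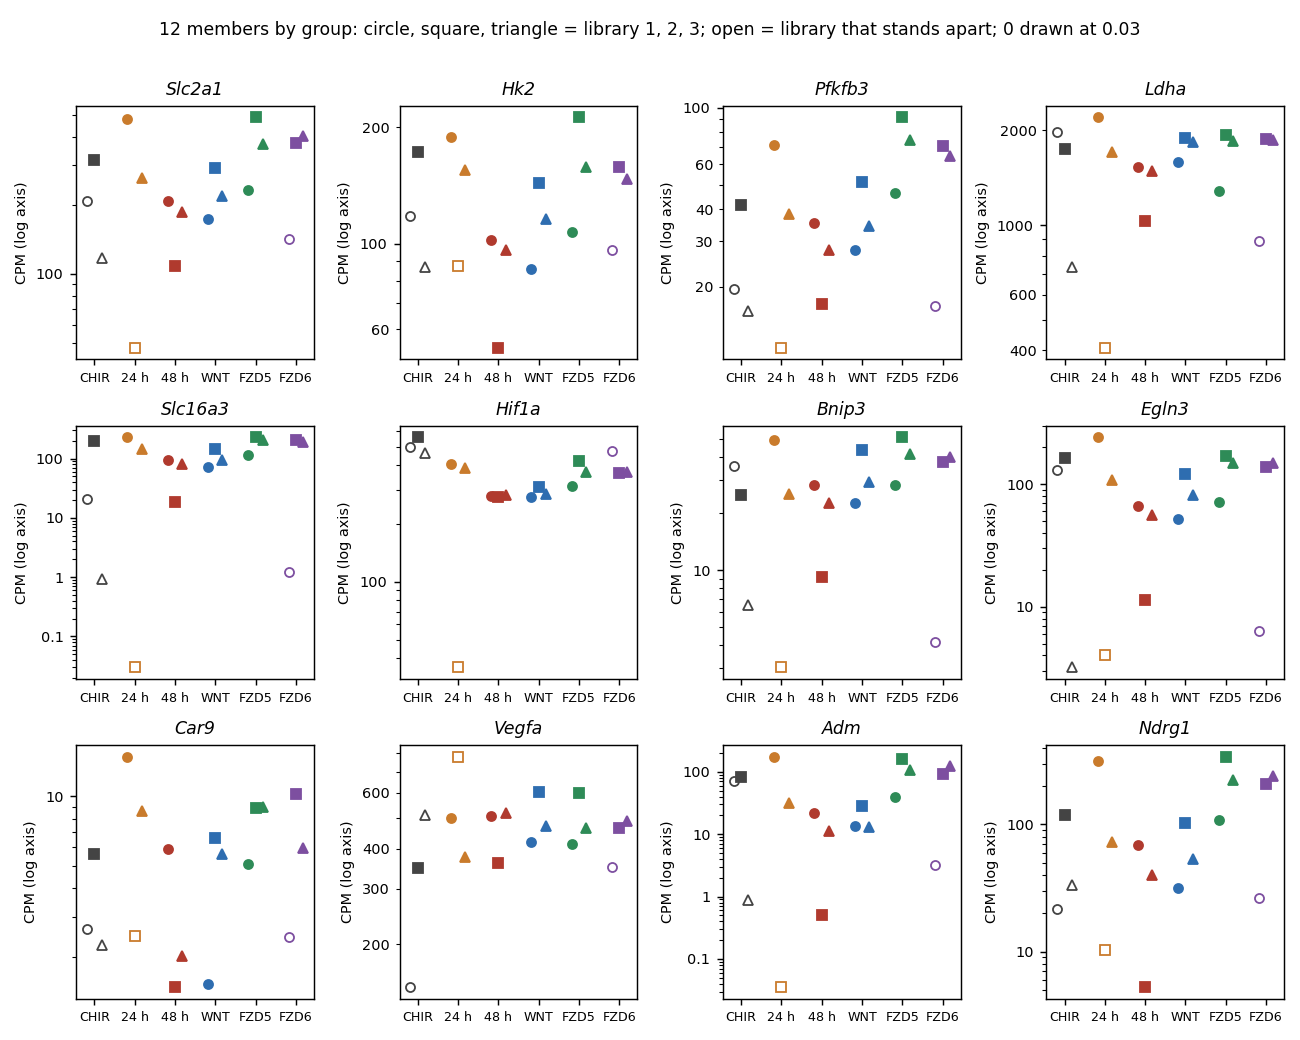
CPM on log axes of 12 members in the 6 groups (24 h and 48 h stand for withdrawal, FZD5 and FZD6 for the agonists); circles, squares and triangles are libraries 1, 2 and 3, and open symbols the 4 libraries that stand apart. For Slc16a3, Egln3, Adm and Ndrg1 the square of 48 h withdrawal lies far below the circle and triangle, for Hif1a the 3 coincide near 278 CPM, and a level of 0 (Slc16a3 in 24 h withdrawal 2) is drawn at 0.03.

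The other HIF targets among the members were called in no comparison. In the 14 libraries P4ha1 and P4ha2, the catalytic subunits of collagen prolyl 4-hydroxylase, ranged from 182 to 510.5 CPM and 192 to 366 CPM. Kdm3a, a histone demethylase, ranged from 123 to 285 CPM and Mxi1, a Myc antagonist, from 50.8 to 102 CPM. Ddit4, an inhibitor of mTORC1 signalling, ranged from 58.9 to 95.9 CPM. Ankrd37 ranged from 3.94 to 27.3 CPM. In 24 h withdrawal 2 Mxi1 was at 0.317 CPM and Kdm3a at 6.31.

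Genes of the same pathways outside the members gave few calls in the 18 libraries. Of 30 further genes of glycolysis and pyruvate metabolism tested, 1 was higher at 48 h withdrawal than in CHIR and none lower, and 2 were higher in WNT than in CHIR. Those were Fbp1, the gluconeogenic fructose bisphosphatase that runs against phosphofructokinase, in both comparisons, and Pgam2 in WNT. Fbp1 was at 32.3, 16.2 and 91.8 CPM in CHIR, 61.0, 85.5 and 59.1 in 24 h withdrawal and 281, 246 and 297 in 48 h withdrawal. It was at 335, 264 and 386 CPM in WNT, 71.5, 78.8 and 110.3 with the FZD5 agonist and 81.5, 87.8 and 95.4 with the FZD6 agonist. Its 48 h withdrawal and WNT libraries stood above all 12 others, and both groups rose against CHIR (log2 fold change 2.56 ± 0.449 SE, adjusted p = 0.00957 in edgeR at 48 h; log2 fold change 2.81 ± 0.454 SE, adjusted p = 0.00893 in edgeR in WNT). Of 16 HIF regulators tested, Siah2, a ubiquitin ligase for Egln proteins, was lower at 48 h withdrawal than in CHIR (log2 fold change -0.92 ± 0.227 SE, adjusted p = 0.0445 in edgeR), and of 31 further HIF targets Stc2 was lower there (log2 fold change -2.81 ± 0.703 SE, adjusted p = 0.0476 in edgeR). Without the 4 libraries the call on Stc2 was lost (log2 fold change -2.23 ± 0.824 SE, adjusted p = 0.0825 in edgeR), and those on Siah2 (log2 fold change -0.97 ± 0.242 SE, adjusted p = 0.00854 in edgeR) and on Fbp1 at 48 h (log2 fold change 4.10 ± 0.305 SE, adjusted p = 3.82e-06 in edgeR) and in WNT (log2 fold change 4.37 ± 0.310 SE, adjusted p = 3.45e-06 in edgeR) were not. Of 15 ATF4 target genes, an amino acid and stress response that shares Ddit4, Ndrg1 and Vegfa with HIF, 7 were lower at 48 h withdrawal and 6 in WNT than in CHIR, led by Phgdh (log2 fold change -3.21 ± 0.441 SE, adjusted p = 0.00344 in edgeR) and Psat1 (log2 fold change -2.48 ± 0.352 SE, adjusted p = 0.00539 in edgeR). No gene of the 4 lists was called in the other 10 comparisons of the 18 libraries. The 4 lists had calls in the 14 libraries for every comparison but WNT against 48 h withdrawal and the 2 agonists. Of the 15 ATF4 targets 11 were then lower at 48 h withdrawal and 9 in WNT than in CHIR 2, and against 48 h withdrawal 11 were higher with the FZD5 agonist and 7 with the FZD6 agonist. Of the 30 further glycolysis genes 5 were higher and 3 lower at 48 h withdrawal than in CHIR 2, and with the FZD5 agonist 2 were higher and 8 lower than at 48 h. Of 32 further HIF targets tested there, 4 were higher and 2 lower in the former comparison and 5 higher and 2 lower in the latter. Fbp1 was higher also at 24 h withdrawal than in CHIR 2 (log2 fold change 1.90 ± 0.278 SE, adjusted p = 0.00448 in edgeR). Alveolar type 1 markers differed in the same comparison as Fbp1, with sums of 9181 to 10235 CPM at 48 h withdrawal against 4559.8, 4223.5 and 8062 in CHIR. Their part in these calls was not tested.

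Epas1, which encodes the alternative alpha subunit HIF-2 alpha, is one of the HIF regulators listed. It was at 27.4, 71.9 and 122 CPM in CHIR, 83.7, 49.4 and 98.2 in 24 h withdrawal and 145, 129.6 and 165 in 48 h withdrawal. It was at 141, 159 and 158 CPM in WNT, 71.4, 97.5 and 79.9 with the FZD5 agonist and 139, 76.5 and 78.3 with the FZD6 agonist. Its 48 h withdrawal and WNT libraries were above all those of CHIR, 24 h withdrawal and the FZD5 agonist. In the 14 libraries it rose from CHIR 2 to 48 h (log2 fold change 1.05 ± 0.164 SE, adjusted p = 0.000245 in edgeR) and was lower than at 48 h with the FZD5 agonist (log2 fold change -0.81 ± 0.110 SE, adjusted p = 0.000193 in edgeR) and the FZD6 agonist (log2 fold change -0.92 ± 0.125 SE, adjusted p = 0.00026 in edgeR). In the 18 libraries these did not pass (adjusted p = 0.231, 1 and 1 by edgeR). The gene was singled out after its values were seen.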

How the data were processed

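RNA-seq libraries from total RNA of mouse lung alveolar type 2 cells, 3 in each of 6 groups, were made with a stranded kit, per the labels' protocols. The authors deposited raw counts per gene over its exons for each library, with the gene's width in bases and an RPKM, per the file headers. Reads were aligned with GSNAP to GRCm38, per the submitters' processing notes. For the counting tool, its strand setting and reads with several matches the sources used here give nothing. The deposited RPKM was read only to check the library totals behind it; the RPKM printed here was computed from the deposited counts, the width and TMM-scaled library sizes.

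The 18 libraries were fitted together with edgeR 4.0.16 (R 4.3.3): TMM scaling, filterByExpr by group (16497 genes kept, 36139 removed), robust quasi-likelihood fit and test, and Benjamini-Hochberg adjustment over all genes tested, with a threshold of 0.05, in 12 comparisons. The script was tested on simulated data. The standard error of a log2 fold change was taken as its size over the root of the F statistic. Printed p-values named as adjusted are edgeR's unless DESeq2 is named. Libraries held 31509607 to 52030066 gene counts, so counting error is small for all but low genes; a count of 0 allows up to 3 counts, and such limits cover counting error only.

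Alternatives were DESeq2 1.42.0, its size factors in edgeR, no filter, only the 2 groups compared, a fit without the 4 libraries that stand apart (17433 genes), the replicate number as a block, the 24 h withdrawal group as baseline, each library left out, and plain library sizes for RPKM. Values in every library were to be given for members called in at least 1 comparison and for Slc2a1, Hk2, Pfkfb3, Pgk1, Ldha, Hif1a, Vegfa, Bnip3, Car9 and Egln3, with ranges for the others, and called genes of the further lists could be named. Of the members called only in the 14 libraries, Eno1, Tpi1, Pgam1, Pfkfb4 and Car12 are given for part of the libraries. The members and all gene lists were chosen with earlier results of these data known. Promoter sequences are from RefSeq (GRCm38.p6).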

Additional observations from a re-analysis of the deposited data

How the results depend on the processing

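The count of members called, 0 in each of the 12 comparisons, depended most on the 4 libraries that stand apart. Without the 4 libraries it was 1 for 24 h withdrawal against CHIR, 4 for 48 h withdrawal against CHIR, 5 for 48 h against 24 h withdrawal, 4 for the FZD5 agonist and 2 for the FZD6 agonist against 48 h withdrawal, 4 for WNT and 1 for each agonist against CHIR, and 2 for each agonist against WNT. With only the 2 groups compared in the fit it was 2 for the FZD5 agonist against 48 h withdrawal (Hif1a and Pdk3, both higher) and 2 for the FZD5 agonist against WNT (Adm higher and Pfkm lower). Over all genes these fits called 1958 of 15031 and 1998 of 15303. DESeq2 gave 1, Eno2, for 48 h against 24 h withdrawal, where it called 582 of 15484 genes. With each library left out in turn the count of members stayed at 0 to 1 for that comparison and at 0 in the others. It reached 1 without 24 h withdrawal replicate 3, where 509 of 17064 genes were called. The cause of these shifts was not tested. Over all genes, 48 h withdrawal against CHIR had 427 calls, and 1275 by DESeq2, 204 without the filter, 129 with only the 2 groups and 4791 without the 4 libraries; WNT against CHIR had 317, and 173, 109 and 4643 by the last 3 of these. With 1 library left out these ran from 57 to 920 and from 29 to 677. The FZD5 agonist against 48 h withdrawal had 0, and 1958 with only the 2 groups and 2737 without the 4 libraries.

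Fitted directions of named members that turned were these. Without the 4 libraries the log2 fold change was -0.20 for Eno2 in 24 h withdrawal against CHIR, -0.51 for Hif1a in 48 h against 24 h withdrawal and -0.69 for Pfkfb4 in WNT against CHIR. With each library left out in turn, values for 48 h against 24 h withdrawal ran from -0.52 (without 24 h withdrawal replicate 2) to 0.41 for Hif1a, with -0.00 without 48 h withdrawal replicate 3, from -0.41 to 0.21 for Pdk3, with 0.12 without 24 h withdrawal replicate 3, from -0.89 to 0.31 for Pgam1 and from -0.83 to 0.01 for Tpi1, the highest of the 4 each without 24 h withdrawal replicate 1. Pdk3 ran from -0.03 (without FZD6 agonist replicate 2) to 0.25 for the FZD6 agonist against 48 h withdrawal, and Pfkm from -0.29 to 0.02 (without FZD6 agonist replicate 3) for the FZD6 agonist against WNT. Pfkfb4 in WNT against CHIR ran from -0.21 (without CHIR replicate 3) to 0.64 (without CHIR replicate 2), with -0.18 and -0.14 without CHIR replicate 1 and WNT replicate 1. None of these members passed the threshold with all 18 libraries.

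With the replicate number as a block, 0 members were called in each comparison, as without it, and calls over all genes were 257 for 48 h withdrawal against CHIR and 198 for WNT against CHIR. No pairing of the libraries by number was seen. Over 45 pairs with the same number, deviations from the group means correlated at -0.52 to 0.47, 4 of them over 0.1. Of 18 libraries, 5 correlated best with their own number. The 4 libraries that stand apart enter these deviations, so the check cannot exclude a pairing, and the labels do not settle it.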
